A study of Capra hircus with 6 samples.

Results

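Cytosolic nucleic acid sensors and the interferon-linked PARPs were followed in peripheral blood mononuclear cells (PBMC, the white blood cells with a single round nucleus) of goat kids. The members were 9 of the 24779 genes counted, chosen by name: the RNA helicases RIG-I (listed as DDX58), MDA5 (IFIH1) and LGP2 (DHX58), the Z-form nucleic acid sensor ZBP1, the DNA sensor cGAS (listed under its older symbol MB21D1), the RNA-activated kinase PKR (EIF2AK2), the ADP-ribosyltransferases PARP9 and PARP14, and DTX3L, the ubiquitin ligase that partners PARP9. All 9 were tested in every comparison. The kids were fed doe's milk (control, 3 libraries) or replacer milk (test, 3 libraries), and the labels call the libraries of a group biological replicates. The sources used here do not give the kids' age, breed or sex, what the replacer was made of, or how long it was fed. The design asks which genes the cells express differently under the feeds.

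RIG-I, MDA5 and LGP2 recognise viral double-stranded RNA in the cytosol, and RIG-I and MDA5 signal through the adaptor MAVS to induce type I interferon, while cGAS reads cytosolic DNA and signals through STING. PKR answers double-stranded RNA by phosphorylating the translation factor eIF2alpha, and ZBP1 recruits RIPK3 to start cell death. In human and mouse cells most of these genes are themselves induced by interferon, so that their transcripts serve as a readout of interferon exposure in blood cells. No sequence is shown, since the measurement is a count per gene and no result turns on a sequence.

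The 6 libraries were of 2 kinds that crossed the feeds. Blood cell transcripts dominated 3 of them, doe-milk 1, doe-milk 2 and replacer-milk 1, which are called transcript libraries here. Counts scaled with the length of the whole gene locus (its span, exons plus introns) in the other 3, doe-milk 3, replacer-milk 2 and replacer-milk 3, which are called span libraries. The Spearman correlation of counts with span across 22964 genes was 0.370 to 0.383 in the transcript libraries and 0.892 to 0.896 in the span libraries. B2M, the small subunit of MHC class I molecules, stood at 8383 to 10105 CPM (counts scaled to the library total) in the former and at 2.99 to 4.88 CPM in the latter, so that the PBMC label was borne out by transcripts in the first kind only. Total counts ran from 48063350 to 57204363 in the transcript libraries and from 25023210 to 27129143 in the span libraries. Replacer-milk libraries 2 and 3 were close to each other (chi-square divided by its degrees of freedom 2.775), while each differed more from doe-milk library 3 (359 and 354). Doe-milk libraries 1 and 2, the other pair alike in feed and kind, stood at 89.9, with higher total counts. Whether replacer-milk libraries 2 and 3 are separate samples was not settled. They were kept as separate replicates as labelled, and the fits that use both are also given with them summed, while counts of libraries that do not overlap and permutation tests use them as labelled. The feeds are therefore compared first within the transcript libraries, where the replacer-milk side is 1 library, and the span libraries are shown apart.

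In the transcript libraries the 3 RNA helicases, ZBP1, PKR and PARP9 stood lower in replacer-milk library 1 than in both doe-milk libraries, at 58.6% to 74.3% of the doe-milk mean in CPM. PARP14 was at 89.9% and DTX3L at 96.6% of it, and cGAS was at 111%. None of the 9 passed the test over all genes. Each member had 679 to 7936 counts in these libraries, and the 95% Poisson interval of a value, which covers counting error only, reached at most 7.60% to either side. Levels are compared between libraries for each gene and not between genes, since transcript lengths were not used here.

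For each of the 3 RIG-I-like receptors replacer-milk library 1 held the lowest of the 3 values, and none passed the test. RIG-I (DDX58), which detects short double-stranded RNA with a 5′ triphosphate, measured 39.2 and 41.9 CPM in doe-milk libraries 1 and 2, and 28.1 CPM in replacer-milk library 1. The doe-milk libraries lay close to each other and the replacer-milk library lay below both (fitted log2 fold change −0.64, SE 0.22, with an edgeR adjusted p = 0.844). MDA5 (IFIH1), which detects long double-stranded RNA, stood at 98.6 and 77.3 CPM against 57.4 CPM. The doe-milk libraries were farther apart than for RIG-I, by 1.27 times, and the replacer-milk library was again the lowest (fitted log2 fold change −0.73, SE 0.23, with an edgeR adjusted p = 0.799). LGP2 (DHX58), a helicase that lacks the signalling domains of RIG-I and MDA5 and modulates their activity, stood at 44.0 and 50.1 CPM against 31.9 CPM. Its replacer-milk value lay 27.7% under the nearer doe-milk library (fitted log2 fold change −0.68, SE 0.23, with an edgeR adjusted p = 0.830).

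ZBP1 had the lowest fold change among the members. It measured 109 and 129 CPM on doe's milk (119 ± 14.1, SD, n = 2) and at 69.4 CPM in replacer-milk library 1. The replacer-milk value was 36.0% under the nearer doe-milk library, a wider gap than the doe-milk libraries had between them (fitted log2 fold change −0.88, SE 0.22, 95% interval −1.42 to −0.35, edgeR unadjusted p = 0.0068, adjusted p = 0.670). By unadjusted p it ranked 176 of the 17356 genes tested. The DNA sensor cGAS (MB21D1), which makes the second messenger cGAMP, stood at 14.1 and 14.7 CPM against 16.0 CPM. It was the one member above both doe-milk libraries. Its fitted log2 fold change of 0.041 (SE 0.24) had a 95% interval from −0.54 to 0.62, so that at this depth of replication neither a lower nor a higher level can be told.

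PKR (EIF2AK2), which halts translation when it binds double-stranded RNA, stood at 34.3 and 31.5 CPM against 24.3 CPM. The replacer-milk library lay below both doe-milk libraries (fitted log2 fold change −0.55, SE 0.22, with an edgeR adjusted p = 0.921).

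Of the PARPs and DTX3L, PARP9 lay as far under the doe-milk libraries as PKR did, at 74.3% and 73.9% of the doe-milk mean, and PARP14 and DTX3L lay nearer to them. PARP9, a catalytically weak ADP-ribosyltransferase that forms a complex with DTX3L, stood at 57.1 and 56.7 CPM against 42.3 CPM. The doe-milk libraries were almost equal, and the replacer-milk library was the lowest of the 3 (fitted log2 fold change −0.54, SE 0.21, with an edgeR adjusted p = 0.921). DTX3L stood at 43.1 and 47.7 CPM against 43.9 CPM, so that replacer-milk library 1 lay between the doe-milk libraries (fitted log2 fold change −0.16, SE 0.22, with an edgeR adjusted p = 0.979). PARP9 and DTX3L are next to each other in the goat ARS1.2 assembly and their gene spans overlap by 164 bases. With no stated strand setting, reads from that overlap cannot be assigned to one of them. PARP14, a mono-ADP-ribosyltransferase with macrodomains that lies next to DTX3L, stood at 125 and 139 CPM against 119 CPM. Its replacer-milk value was 5.23% under the nearer doe-milk library (fitted log2 fold change −0.26, SE 0.20, 95% interval −0.75 to 0.22, with an edgeR adjusted p = 0.979). The test of PARP9 against DTX3L or PARP14 was not run, and their 95% intervals overlap.

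**Figure D1:**
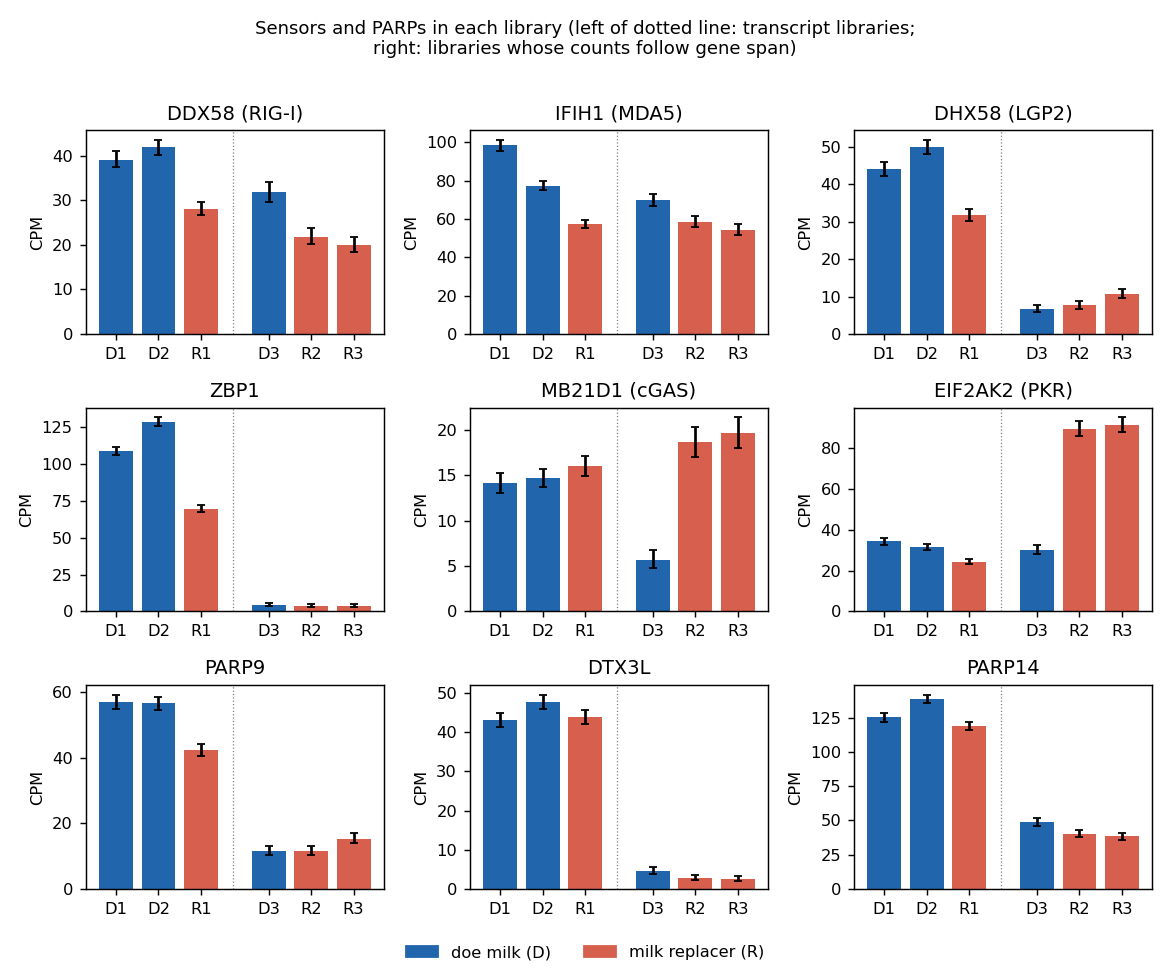
Expression of the 9 members in each library in CPM (y axis, from 0), with doe-milk libraries (D, blue) and replacer-milk libraries (R, red) on the x axis, the transcript libraries left of the dotted line and the span libraries right of it. Error bars are 95% Poisson intervals and cover counting error only. In the transcript libraries R1 is the lowest bar for 7 of the 9 genes, while MB21D1 is highest in R1 and DTX3L lies between D1 and D2. In the span libraries EIF2AK2 and MB21D1 are higher in R2 and R3 than in D3.

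In CPM, replacer-milk library 1 lay below both doe-milk libraries for 7 of the 9 members, where 23.8% of the 17356 genes tested did, and above both for 1, where 46.9% did. After TMM scaling, which corrects for a few genes taking up much of a library, 8 members lay below, against 33.1% of genes, and 1 above, against 34.5%. This scaling lowers the log2 ratio of every gene in that library by 0.11, and DTX3L is the member it moved from between the doe-milk libraries to below them. The log2 fold change was below 0 for 8 of the 9 members, where it was for 50.6% of genes. The median log2 fold change of the 9 members was −0.55, beside −0.0057 over all genes tested. The members' fold changes lay between the 8.22th and the 55.7th percentile of all genes, with ZBP1 lowest and cGAS highest. None of the 9 passed in edgeR's quasi-likelihood test at an adjusted p of 0.05, where 0.0115% of genes passed as lower, 0.00576% as higher and 0.0173% in either direction. DESeq2 and limma voom also called 0 members. At an unadjusted edgeR p below 0.05 there were 6 members (ZBP1, IFIH1, DHX58, DDX58, PARP9 and EIF2AK2), where 5.35% of genes were. The replacer-milk side of the test is 1 library, assumed to vary like the doe-milk libraries, and the fit has 1 residual degree of freedom. Genes measured in the same library are not independent, so that counts of members describe this library and not the feed. The members were also chosen with earlier results of these data known. Their excess over the shares of all genes is therefore a description and no independent evidence.

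**Figure D2:**
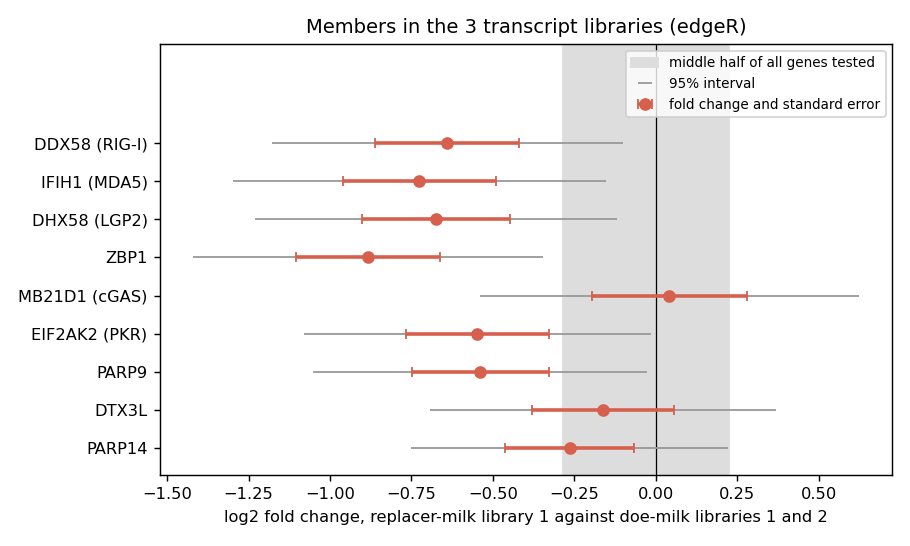
Log2 fold change of each member in replacer-milk library 1 against doe-milk libraries 1 and 2 (x axis, edgeR with TMM scaling). Points are fitted values, red bars the standard error and grey bars the 95% interval without adjustment, and the grey band holds the middle of all 17356 genes tested, from the lower to the upper quartile (−0.29 to 0.23). ZBP1, the 3 helicases, EIF2AK2 and PARP9 lie left of the band, and PARP14, DTX3L and MB21D1 lie in it.

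Leaving out a doe-milk library changed the size of the fold changes. Their sign without either one follows from the order given above, with 8 members below both doe-milk libraries after TMM scaling. Without doe-milk library 1 the log2 fold change of ZBP1 was −1.005 and that of MDA5 −0.55, and without doe-milk library 2 they were −0.76 and −0.89. The 8 members with negative values kept that sign under every alternative run in the transcript libraries, and cGAS stayed between 0.0077 and 0.067. Replacer-milk library 1 is part of every such alternative and could not be left out, so how far the values rest on it was not tested.

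The genes that act with these sensors had a median near that of all genes. Of 97 partner genes tested across the lists, each counted once, 0 passed in edgeR (6 had an unadjusted p below 0.05), and 0 passed in DESeq2 and in limma voom. Their median log2 fold change was 0.042, with 44 below 0 and 53 above. Of the RIG-I-like receptor signalling list, 10 of 20 genes were below 0 (median 0.018, 0 with an unadjusted p below 0.05). MAVS, the mitochondrial adaptor of RIG-I and MDA5, measured 18.1 and 22.9 CPM on doe's milk and 28.5 CPM on replacer. That order is opposite to the one seen for the helicases that signal through it. However, 46.9% of all genes tested lay above both doe-milk libraries in CPM. The fitted log2 fold change of MAVS was 0.36 (SE 0.24, edgeR adjusted p = 0.979). TRIM25, a ubiquitin ligase that activates RIG-I, stood at 69.5 and 72.3 against 72.2 CPM. The kinase TBK1 stood at 26.4 and 25.9 against 26.6 CPM. IRF3, the transcription factor it phosphorylates, stood at 113 and 103 against 111 CPM. TRIM25 and IRF3 lay between the doe-milk libraries, and TBK1 lay just above them in CPM. IRF7, which is interferon-induced, stood at 47.5 and 36.6 against 35.5 CPM, just under the lower doe-milk library. DDX60, a helicase reported to assist RIG-I in human cells, was near the floor of the data at 0.125 and 0.157 against 0.212 CPM.

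On the DNA-sensing side, 7 of 18 genes were below 0 (median 0.10, 0 passed in edgeR and 1 had an unadjusted p below 0.05). STING (TMEM173), the receptor for cGAMP, stood at 27.6 and 24.2 against 29.5 CPM. The exonuclease TREX1, which removes cytosolic DNA, stood at 7.47 and 8.57 against 6.84 CPM. SAMHD1, which depletes nucleotides and restricts viruses, stood at 424 and 427 against 519 CPM. In CPM the receptor and the restriction factor were highest in replacer-milk library 1, and TREX1 was lowest in it.

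Of the genes that act with ZBP1 in cell death, 4 of 8 were below 0 (median −0.062, 0 passed in edgeR and 0 had an unadjusted p below 0.05). The kinase RIPK3, which ZBP1 recruits, stood at 41.9 and 41.97 against 41.5 CPM. Its 3 values were nearly equal, unlike those of ZBP1. RIPK1 stood at 71.3 and 70.2 against 81.6 CPM. The pore-forming MLKL was low in all 3, at 3.35 and 2.59 against 2.12 CPM. ADAR, an editing enzyme that prevents endogenous RNA from being sensed, stood at 76.6 and 96.7 against 78.3 CPM, between the doe-milk libraries.

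Of the eIF2alpha kinases and their regulators, 8 of 17 were below 0 (median 0.018, 0 passed in edgeR and 3 had an unadjusted p below 0.05). PERK (EIF2AK3), the eIF2alpha kinase of the endoplasmic reticulum, stood at 72.7 and 86.7 against 130 CPM (fitted log2 fold change 0.59, SE 0.21, with an edgeR adjusted p = 0.859). This places PERK above both doe-milk libraries and PKR below both, with neither past the test. The heme-regulated kinase EIF2AK1 stood at 17.9 and 12.9 against 17.6 CPM, and the amino acid-sensing kinase EIF2AK4 at 24.3 and 26.97 against 32.7 CPM.

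Of the other PARP genes, 6 of 14 were below 0 (median 0.11, 0 passed in edgeR and 0 had an unadjusted p below 0.05). PARP12 stood at 76.1 and 87.98 against 82.8 CPM and PARP10 at 65.1 and 60.2 against 64.2 CPM, both between the doe-milk libraries. Both are interferon-induced mono-ADP-ribosyltransferases in human cells, as PARP14 is. ZC3HAV1, the zinc-finger antiviral protein also called PARP13, stood at 160 and 143 against 194 CPM. PARP11 stood at 15.5 and 16.0 against 18.4 CPM, and TIPARP, a PARP induced through the aryl hydrocarbon receptor, at 90.0 and 65.3 against 70.3 CPM. PARP1, the DNA damage responder, stood at 323 and 431 against 440 CPM. Of the genes for removing ADP-ribose and the other DTX ligases, 2 of 10 were below 0 (median 0.087, 0 passed in edgeR and 1 had an unadjusted p below 0.05), with the hydrolase PARG at 26.8 and 35.6 against 38.1 CPM.

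Of 12 genes for interferon receptors, their kinases and the ISGF3 complex, 8 were below 0, where 50.6% of all genes were (median −0.17, 0 passed in edgeR and 1 had an unadjusted p below 0.05). STAT2, a subunit of the ISGF3 transcription factor complex, stood at 68.1 and 75.3 against 66.6 CPM. IRF9, the DNA-binding subunit of ISGF3, stood at 154 and 145 against 136 CPM. Both were lowest in replacer-milk library 1 in CPM, with log2 fold changes of −0.22 (SE 0.21) and −0.25 (SE 0.19), nearer to 0 than those of the helicases. The kinases JAK1 (log2 fold change 0.31) and TYK2 (0.072) and the type I interferon receptor chains IFNAR1 (0.054) and IFNAR2 (0.11) lay above both doe-milk libraries in CPM. IFNGR1 (−0.52), IFNGR2 (−0.37), IRF1 (−0.22) and SOCS3 (−0.80) lay below both. In CPM 6 of the 12 genes were below both and 4 above both, where 23.8% and 46.9% of all genes were. After TMM scaling 6 were below both and 2 above both, where 33.1% and 34.5% of all genes were. All genes named here except STAT2 and IRF9 were named after their values were seen.

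**Figure D3:**
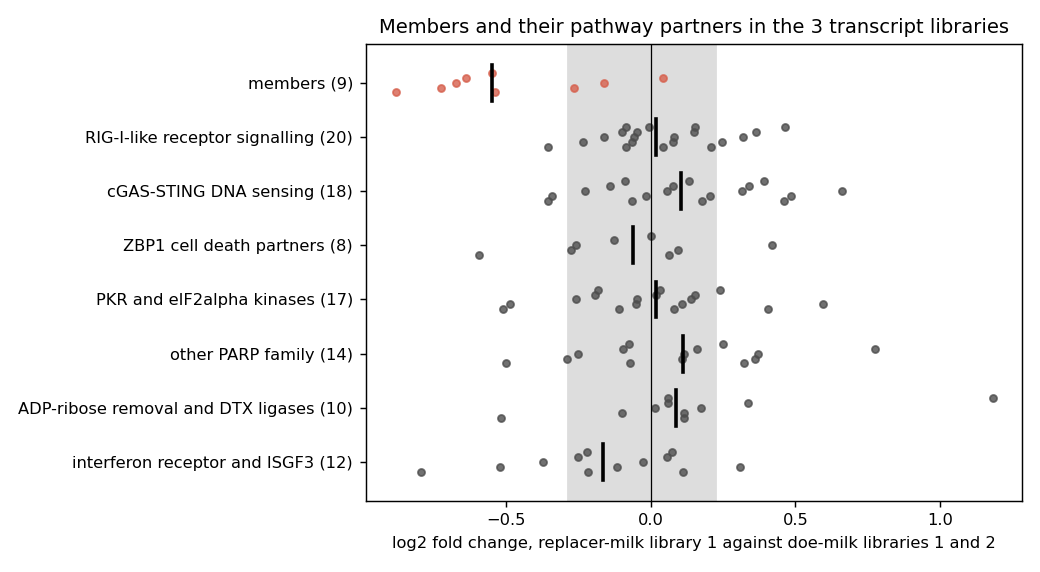
Log2 fold change in replacer-milk library 1 against doe-milk libraries 1 and 2 (x axis) for the 9 members (red) and for the genes of 7 partner lists (grey points), with the number of genes tested in brackets and the list median as a black bar. The grey band runs from the lower to the upper quartile of all genes tested. The members' median is −0.55, and the medians of the partner lists run from −0.17 for interferon receptors and ISGF3 to 0.11 for the other PARP genes.

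Levels of several blood cell markers in replacer-milk library 1 lay outside those of the doe-milk libraries, and their part in these values was not tested. Fewer cells of a type and less RNA per cell cannot be told apart in bulk RNA. The counts of markers that follow are in CPM, where 23.8% of all genes lay below both doe-milk libraries and 46.9% above both. Of the neutrophil markers, 6 of 9 lay below both doe-milk libraries and 1 above both. Their summed level was 861 and 472 CPM in the doe-milk libraries against 322 CPM, with the chemokine receptor CXCR2 at 163 and 58.8 against 16.6 CPM. The erythroid sum was 1721 and 1877 against 720 CPM (2 of 6 below both and 2 above both), and most of it was the globin HBBC at 1619 and 1794 against 607 CPM. The other marker below both, EPB42, was near the floor at 0.229 and 0.262 against 0.135 CPM. Above both were ALAS2 at 1.93 and 5.12 against 9.62 CPM and GYPC at 100 and 76.8 against 103 CPM. The plasma cell sum was 1567 and 1107 against 861 CPM (4 of 8 below both and 2 above both), and most of it was JCHAIN at 1201 and 777 against 535 CPM. The platelet sum was 659 and 968 against 782 CPM (4 of 7 below both and 0 above both), with the platelet chemokine PPBP at 41.3 and 51.0 against 28.3 CPM. The B cell sum was 2367 and 2273 against 2674 CPM (8 of 10 above both and 1 below both), with CD79A at 610 and 526 against 714 CPM. The T cell sum was 1653 and 1378 against 1749 CPM (7 of 10 above both and 0 below both), with CD3E at 479 and 405 against 490 CPM. The monocyte sum was 857 and 858 against 957 CPM (5 of 8 above both and 2 below both). CD14 was at 120 and 101 against 137 CPM, and CLEC4E at 17.9 and 22.0 against 5.63 CPM. The plasmacytoid dendritic cell sum was 531 and 470 against 537 CPM (4 of 7 above both and 2 below both). The NK cell sum was 258 and 420 against 316 CPM (1 of 5 below both and 0 above both). After TMM scaling the counts above both were 6 of 10 for B cells, 4 of 10 for T cells, 4 of 8 for monocytes and 2 of the 6 plasmacytoid dendritic cell markers tested, where 34.5% of all genes were. No blood cell marker in the table was at 0 in all 3 transcript libraries. CLEC4E, EPB42, ALAS2, GYPC and JCHAIN were not among the markers fixed beforehand to be named.

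The genes whose pattern over the 3 transcript libraries was most like the mean of the members were MCEE, SKA2, ADAM8, RAP2B and MFF, out of 8096 other named genes with a mean of at least 10 CPM. Likeness was the Euclidean distance between centred log2 CPM values, which was 0.0017 for MCEE and 0.019 for MFF. MCEE, an enzyme of propionate metabolism, stood at 24.9 and 25.8 against 19.5 CPM, and ADAM8, a leukocyte surface protease, at 95.96 and 100.03 against 75.9 CPM. With 3 libraries many genes can come close to any pattern, and no shared function follows from it.

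In CPM in the span libraries 5 of the 9 members were lower and 4 higher in both replacer-milk libraries than in doe-milk library 3, where 57.4% of genes were lower in both and 37.6% higher in both. RIG-I (DDX58) stood at 31.8 CPM in doe-milk library 3 and measured 21.9 and 20.1 CPM on replacer, lower in both. MDA5 (IFIH1) stood at 69.8 against 58.5 and 54.5 CPM, again lower in both. LGP2 (DHX58) stood at 6.75 against 7.63 and 10.7 CPM, higher in both. ZBP1 was low in these libraries, at 4.52 against 3.98 and 4.01 CPM, and the transcript libraries averaged 24.5 times more. It is lower in both replacer-milk libraries in CPM and higher in both after TMM scaling. PKR (EIF2AK2) went from 30.1 CPM to 89.4 and 91.3 CPM, and cGAS (MB21D1) from 5.71 to 18.7 and 19.7 CPM. These were the members with the greatest distance between the feeds in these libraries. PARP9 stood at 11.6 against 11.7 and 15.4 CPM, DTX3L at 4.56 against 2.80 and 2.51 CPM, and PARP14 at 48.8 against 40.4 and 38.3 CPM. For PARP9, doe-milk library 3 and replacer-milk library 2 were almost equal.

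Read against gene span, the values of PKR and cGAS differed in different libraries. Per kb of span, protein-coding genes of at least 10 kb had a median of 0.737 CPM in doe-milk library 3, and of 0.672 and 0.674 CPM in the replacer-milk span libraries. EIF2AK2 had 0.894 CPM per kb in doe-milk library 3, at the 65.7th percentile of these genes, and 2.66 and 2.72 CPM per kb in the replacer-milk libraries, at the 96.0th and 96.1st percentiles. The replacer-milk libraries thus held the values farthest from the median. MB21D1 had 0.224 CPM per kb in doe-milk library 3, at the 0.258th percentile, and 0.730 and 0.770 CPM per kb in the others, at the 56.6th and 60.5th. For cGAS the doe-milk library held the value farthest from the median. ZBP1, by comparison, lay at the 8.55th, 12.8th and 12.9th percentiles, where it had been above the 96th in the transcript libraries.

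The test within the span libraries called 5 of the 9 members, DHX58, EIF2AK2, PARP9 and MB21D1 as higher and DDX58 as lower in replacer milk. In the same test 36.7% of all 22232 genes were called higher and 36.5% lower, 73.2% in all, and the members' share of 5 in 9 is no higher than that. The log2 fold change was 1.83 (SE 0.075, edgeR adjusted p = 1.34e-19) for EIF2AK2 and 1.98 (SE 0.16, edgeR adjusted p = 3.07e-12) for MB21D1. The doe-milk side is 1 library, and with replacer-milk libraries 2 and 3 as near to each other as given above, the p-values may measure technical spread. With those libraries summed the fitted values were 1.84 and 1.995, with no test. With DESeq2 these 2 of the 9 passed, where 54.9% of all genes did. With upper quartile scaling 7 passed, where 74.5% of all genes did, with IFIH1, PARP14 and DTX3L added as lower and PARP9 lost. In a fit of all 6 libraries with 1 group for each feed and library kind these 2 and DTX3L passed, with DTX3L lower, where 40.3% of all genes passed.

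The difference between the library kinds was itself tested in that fit. The log2 fold change in the transcript libraries minus that in the span libraries was −2.30 (SE 0.20, edgeR adjusted p = 0.0046) for EIF2AK2 and −1.87 (SE 0.25, edgeR adjusted p = 0.011) for MB21D1. These 2 members passed, where 10.9% of the 21431 genes tested passed as lower and 12.1% as higher, 23.0% in all. For the other 7 the adjusted p ran from 0.0598 (ZBP1) to 0.680 (PARP14). With replacer-milk libraries 2 and 3 summed, 5.96% of genes passed, EIF2AK2 did (−2.46, edgeR adjusted p = 0.027) and MB21D1 did not (−2.03, edgeR adjusted p = 0.075). Without replacer-milk library 2 or library 3 the edgeR adjusted p of MB21D1 was 0.084 and 0.092. Leaving out doe-milk library 1 or library 2 leaves the spread of those replacer-milk libraries alone. The number of members passing there is therefore not read as a result about the members. With 1 library left out the values ran from −2.42 to −2.30 for EIF2AK2 and from −2.04 to −1.84 for MB21D1.

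**Figure D4:**
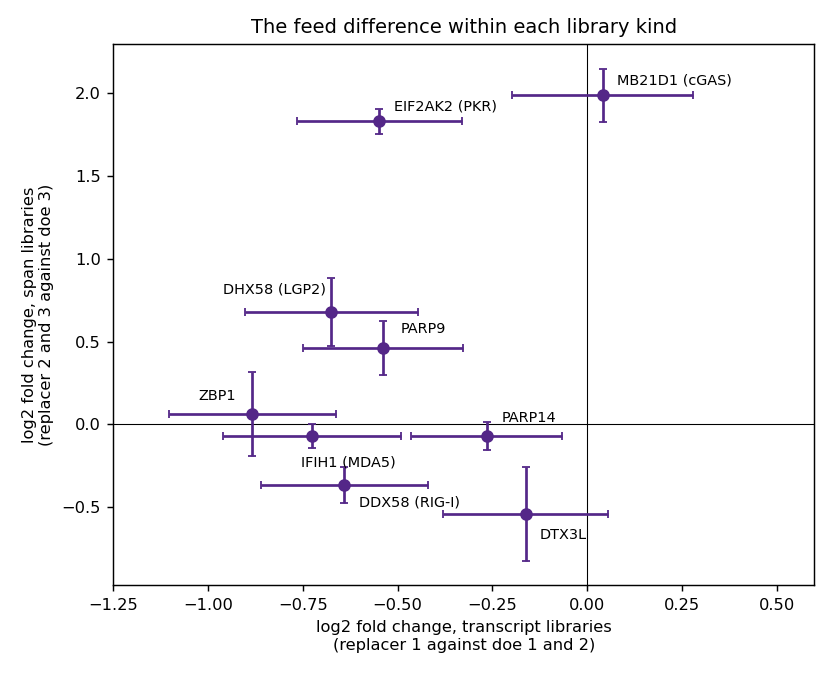
Log2 fold change of each member, replacer milk against doe milk, within the transcript libraries (x axis) and within the span libraries (y axis). Points are fitted edgeR values and bars the standard error in each comparison. EIF2AK2 and MB21D1 stand apart at 1.83 and 1.98 on the y axis, and EIF2AK2, DHX58, PARP9 and ZBP1 are negative on the x axis and positive on the y axis, ZBP1 by 0.062 only.

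Over all 6 libraries no member passed between the feeds. The fitted value was below 0 for 7 of the 9, where it was for 51.6% of genes. The members' log2 fold changes ran from −1.81 for ZBP1 to 0.43 for EIF2AK2, with a median of −1.06. The median was −0.056 over the 21431 genes tested and −0.54 over the 97 partner genes, of which 77 were below 0. It was −0.63 for T cell and −0.76 for B cell markers, beside 0.12 and 0.23 in the transcript libraries, and 0.057 for erythroid markers. Doe milk had 2 transcript libraries and 1 span library, and replacer milk had 1 and 2. Feed and library kind are therefore mixed, and this fit cannot tell their parts apart. The smallest edgeR adjusted p was 0.987. With 1 library left out, ZBP1 ran from −5.51 (without replacer-milk library 1) to −1.27, DTX3L from −4.73 to −0.56 and EIF2AK2 from 0.085 to 0.62. The alternatives also include library kind as a term. The highest values over all of them were −0.46 for ZBP1, −0.37 for DTX3L and 1.15 for EIF2AK2. For PARP9 the highest was −0.078 and for DHX58 −0.044. In this fit 0.0% of genes passed in edgeR, 0.574% had an unadjusted p below 0.05 (0 of the members), DESeq2 called 1 gene and limma voom 0. In CPM the feeds did not overlap for 3 members. MDA5 (IFIH1) measured 98.6, 77.3 and 69.8 CPM on doe's milk and 57.4, 58.5 and 54.5 CPM on replacer. Every replacer-milk value was under every doe-milk value. RIG-I (DDX58) stood at 39.2, 41.9 and 31.8 CPM against 28.1, 21.9 and 20.1 CPM, likewise without overlap. cGAS (MB21D1) stood at 14.1, 14.7 and 5.71 CPM against 16.0, 18.7 and 19.7 CPM, with every replacer-milk value the higher. In CPM, 1.18% of all genes lay below in this way and 2.13% above. An exact two-sided permutation test of mean log2 CPM gave p = 0.1 for each of these 3 genes, the smallest that 3 against 3 libraries allow. Any gene without overlap gets this value, so the test adds nothing to the lack of overlap by which they were picked. It also treats the libraries as interchangeable, though the 2 kinds are spread unevenly over the feeds. After TMM scaling over the 6 libraries, which multiplies the 2 kinds by different factors, the feeds overlapped for all 9 members (exact permutation p from 0.2 to 0.8), against 1.07% of genes below and 1.9% above. The separation of these 3 genes therefore depends on scaling by the library total.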

How the data were processed

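Total RNA of PBMC was extracted with TRIzol and, per the labels' protocols, libraries were prepared with a NEBNext Ultra II RNA kit. The deposited unit is raw counts, in 1 table of 24779 genes and 6 libraries with 0 unnamed rows. Per the submitters' processing notes the authors named STAR 2.7.10a, featureCounts 2.0.0, fastp 0.22.0, bcl2fastq 2.19.0.316, and for quality reports MultiQC 1.12 and FastQC 0.11.9. Tool settings, strandedness, genome build and annotation: not given in the sources used here. Nothing in the labels says that each library came from a different animal beyond the words biological replicate, so p-values measure the spread between these libraries.

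Columns were matched by the sample descriptions and groups by the titles. After filterByExpr and TMM scaling, genes went through edgeR 4.0.16 (R 4.3.3) and its robust quasi-likelihood test, two-sided, replacer minus doe milk, with Benjamini-Hochberg adjustment over all genes tested and a threshold of 0.05. Each standard error is |log2 fold change| over the square root of F. CPM use the library total. Gene spans came from the RefSeq gene table of assembly ARS1.2, used for lengths and neighbours only.

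The members, the lists and the split into library kinds were chosen with earlier results of these data known, and no set test was run. Named genes were all members, a set of partners and markers fixed by name, and the 5 nearest genes by pattern. Other genes were named outside that set, among them the markers CLEC4E, EPB42, ALAS2, GYPC and JCHAIN. The rule also allows up to 4 other list members past a test, of which none is named from the span libraries, since 73.2% of all genes passed there. Some planned list genes are not reported here. The planned promoter motif description was not run, and no sequences were used here. Alternatives were RLE and upper quartile scaling, other filters, dispersions not robust, DESeq2 1.42.0, limma voom (limma 3.58.1), a threshold of 0.1, each library left out, the replicate number as a block, library kind as a term and a 4-group fit. Summing replacer-milk libraries 2 and 3, and every alternative for the difference between library kinds, were chosen after seeing the data. Plots were made in matplotlib 3.10.9.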

Additional observations from a re-analysis of the deposited data

Results flagged for a closer look

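The feed difference of 2 members differed between the library kinds in a test of the difference itself. For EIF2AK2 (PKR) the log2 fold change in the transcript libraries minus that in the span libraries was −2.30 (edgeR adjusted p = 0.0046), with replacer milk lower in the former and higher in both libraries of the latter. For MB21D1 (cGAS) it was −1.87 (edgeR adjusted p = 0.011), with replacer milk higher in all 3 replacer-milk libraries in CPM and by more in the span libraries. In the transcript libraries its fitted log2 fold change was 0.041 (SE 0.24), so that no direction can be told there. After TMM scaling over all libraries the feeds overlapped for this gene. The test rests on 2 residual degrees of freedom, 1 of them from replacer-milk libraries 2 and 3, which lay very close to each other, and 23.0% of all genes passed it in either direction. With those libraries summed EIF2AK2 passed (−2.46, edgeR adjusted p = 0.027) and MB21D1 did not (−2.03, edgeR adjusted p = 0.075), with 5.96% of all genes passing.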

How the results depend on the processing

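In the transcript libraries 0 members passed under any alternative with a test. The number of genes called lower, 2 as reported, was 63 with no filter, 117 with DESeq2, 1 with dispersions not robust and in the 4-group fit, and 0 under limma voom and a 1 CPM minimum in each library. The number called higher, 1 as reported, was 27 with no filter, 31 with DESeq2, 2 with RLE scaling, with upper quartile scaling and at a threshold of 0.1, and 0 under a 1 CPM minimum in each library, dispersions not robust and limma voom. The cause was not tested. The adjusted p of ZBP1 ran from 0.152 to 0.721 over the alternatives. All 99 alternative values of the members kept their direction. Some of them, such as those at a threshold of 0.1 or with dispersions not robust, repeat the reported fold change, and all include replacer-milk library 1. For the partners 269 kept theirs and 5 reversed, all with 1 library left out, which leaves 1 against 1 and no test. Without doe-milk library 2 the log2 fold changes were −0.018 for TMEM173, −0.14 for EIF2AK1 and 0.0090 for PARP12, and without doe-milk library 1 they were −0.090 for PARP1 and −0.022 for PARG. The full ranges with 1 library left out were −0.018 to 0.17 for TMEM173, −0.14 to 0.32 for EIF2AK1, −0.090 to 0.33 for PARP1, −0.20 to 0.0090 for PARP12 and −0.022 to 0.39 for PARG.

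Over all 6 libraries the count of genes called higher went from 0 to 1 with DESeq2 and with library kind as a term, and 0 members passed under any alternative. MB21D1 reversed to −0.42 without doe-milk library 3 and to −0.30 without replacer-milk library 1, within a range of −0.42 to 0.38 with 1 library left out and of −0.42 to 0.97 over all alternatives. Libraries with the same replicate number correlated at 0.896, −0.888 and 0.928 in their deviations from the group means. These signs follow library kind, which is the same in both libraries numbered 1 and in both numbered 3 and differs in those numbered 2, so that the check cannot tell whether the numbers pair the samples. With the replicate block 0 genes and 0 members passed and the all-gene median was 0.22. Replacer-milk libraries 2 and 3 summed also gave 0.

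In the span libraries the 4-group fit called 4706 genes lower and 3924 higher, where 8108 and 8158 were reported, and 3 members, and DESeq2 called 2 members. ZBP1 reversed to −0.097 with upper quartile scaling, to −6.6e-05 under a 1 CPM minimum in each library and to −0.0065 in the 4-group fit, and was not called in any. Upper quartile scaling moved the all-gene median from −0.028 to −0.19. Under it IFIH1 (−0.23), PARP14 (−0.23) and DTX3L (−0.70) were called lower and PARP9 (0.30) was not called. Counting error reached 24.7% of a value in the span libraries and 7.60% in the transcript libraries. Each comparison within a library kind has 1 library on one side.

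For the difference between library kinds, 2329 genes were lower and 2591 higher as reported, 706 and 599 with replacer-milk libraries 2 and 3 summed, and 597 to 6031 and 685 to 5562 with 1 library left out. The members called were 2 as reported, 1 with those libraries summed, 1 to 8 with 1 library left out and 5 at a threshold of 0.1. EIF2AK2 passed under all 6 alternatives and MB21D1 under 3, and no member reversed.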

Other observations

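Some list members outside the naming rule also stood outside the doe-milk libraries. They were chosen after their values were seen, and none passed the test over all genes. DTX1, a ubiquitin ligase of the same family as DTX3L that regulates Notch signalling, measured 7.93 and 8.83 CPM in doe-milk libraries 1 and 2, and 20.5 CPM in replacer-milk library 1 (fitted log2 fold change 1.18, SE 0.26, edgeR adjusted p = 0.536). SOCS3, a feedback inhibitor of cytokine receptors, stood at 70.97 and 62.1 against 41.4 CPM (fitted log2 fold change −0.80, SE 0.22, edgeR adjusted p = 0.701). Downstream of the eIF2alpha kinases, the transcription factor ATF4 stood at 790 and 844 against 619 CPM and the phosphatase subunit PPP1R15A at 338 and 315 against 251 CPM, both below both doe-milk libraries. TRIM32, a ubiquitin ligase reported to act on STING, stood at 22.4 and 16.6 against 33.3 CPM.

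The 3 genes that passed the test in the transcript libraries are listed without a symbol. LOC102181554 measured 94.96 and 100.5 CPM on doe's milk and 0.771 CPM on replacer. LOC102186914 stood at 257 and 227 against 24.3 CPM, and LOC108637289 was higher on replacer, at 4.47 and 4.9996 against 53.9 CPM.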
